A study of Mus musculus with 9 samples.

Results

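The 36 genes described here encode the transporters, enzymes and regulators of glycolysis, the α subunits and oxygen sensors of the hypoxia-inducible factor (HIF) system, and 6 genes that are known to respond to HIF. They were taken by symbol from a list of pathway members, with no measured value in the rule. All 36 were found among the 56980 genes of the deposited table, on 37 rows because Aldoa had 2. The row for ENSMUSG00000030695 was used for Aldoa, and the second row (ENSMUSG00000114515), which held 0 to 16 estimated counts per library, did not pass the low-count filter over all 9 libraries. All 36 genes passed the low-count filter, which left 16576 genes for testing.

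RNA was sequenced in bulk from 9 wild-type C57BL/6 mice, with no allele or treatment named other than ageing. Young mice were 3 months old (4 libraries, young 1 to 4) and aged mice were 20 months old (5 libraries, aged 1 to 5), and each library was labelled a biological replicate. The tissue label was bone marrow, whereas the extraction text described total RNA from homogenised trabecular bone. The series was set up to study ageing and the sensory nerves of bone.

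Library totals ranged from 19804883 to 23548594 estimated counts. Young 4, aged 3 and aged 4 stood apart by their share of ribosomal protein transcripts, which was 5.65% to 6.57% there and 2.87% to 3.09% elsewhere, and no label names a batch. Every comparison was therefore fitted with age only and again with this library set as a term, and the 3-library set is shown apart from the 6-library set below. The design text calls the mice female, but young 1 to 4 and aged 5 held 3098 to 4925 counts of Y-linked genes and 1 to 9 counts of Xist, against 39 to 44 and 7909 to 21724 in aged 1 to 4. Age and these sex-linked transcripts thus differed together in all libraries but aged 5, and apart from that library their effects cannot be told apart. The 15 osteoblast and osteocyte markers summed to 3026.5 to 7686 CPM (the count scaled to library size with TMM factors) in the young and 878 to 3291 in the aged libraries, so transcripts of bone cells were counted in every library. With age only, the log2 fold change of aged over young was below 0 for all 15, and 9 of them had an unadjusted edgeR p under 0.05. At that p, 4.64% of all genes tested were lower with age only. With the set term, 3 of 9 plasma cell and 2 of 14 T and NK cell markers were called higher. Called lower were 5 of 14 cell division genes, 1 of 19 erythroid and 1 of 15 osteoblast and osteocyte markers. Of all genes tested, 0.615% were called higher and 1.31% lower with the set term. All 11 B cell progenitor markers had log2 fold changes below 0 with age only, and 0 of them were called. Skeletal muscle markers summed to 4962 to 14143 CPM in the young and 4581 to 14566 in the aged libraries.

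Glycolysis splits glucose into pyruvate and yields ATP without oxygen, and lactate dehydrogenase then turns pyruvate into lactate, which leaves the cell through monocarboxylate transporters. HIF α subunits are hydroxylated by oxygen-dependent prolyl hydroxylases and destroyed through the VHL ubiquitin ligase. When oxygen is low they persist, pair with ARNT and bind hypoxia response elements, whose core reads ACGTG or GCGTG, at genes of glucose uptake, glycolysis, blood vessel growth and mitophagy. In bone, HIF signalling in the osteoblast lineage is known to act on Vegfa and vessel growth, marrow stem cells are known for their use of glycolysis, and red cells, which lack mitochondria, depend on it.

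Promoter sequences are shown for 6 genes because they are the ones that had an unadjusted p under 0.05 in the age-only fit and a RefSeq promoter window. Each window runs from 250 bases before to 50 after the annotated start and is printed 5′ to 3′ on the strand of the gene (RefSeq, build GRCm38.p6). Capitals mark the cores ACGTG and GCGTG on either strand, so that CACGT and CACGC are marked too, and CACGTG counts as 2 matches of ACGTG. Pfkp (phosphofructokinase, platelet type) and Pfkl (liver type) lie at chr13:6648722-6649021 and chr10:78009758-78010057, both on the minus strand. Slc16a1 (lactate transporter MCT1) and Slc2a1 (glucose transporter GLUT1) lie on the plus strand at chr3:104638414-104638713 and chr4:119108495-119108794. Egln3 (prolyl hydroxylase PHD3) and Ankrd37 (an ankyrin repeat gene known as a HIF target) lie on the minus strand at chr12:54203825-54204124 and chr8:45999801-46000100.
Pfkp: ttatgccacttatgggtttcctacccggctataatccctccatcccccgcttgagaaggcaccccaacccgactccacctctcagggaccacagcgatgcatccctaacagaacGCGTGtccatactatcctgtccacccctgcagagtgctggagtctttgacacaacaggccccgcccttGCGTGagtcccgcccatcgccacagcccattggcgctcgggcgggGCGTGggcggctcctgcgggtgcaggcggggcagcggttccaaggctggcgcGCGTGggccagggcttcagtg
Pfkl: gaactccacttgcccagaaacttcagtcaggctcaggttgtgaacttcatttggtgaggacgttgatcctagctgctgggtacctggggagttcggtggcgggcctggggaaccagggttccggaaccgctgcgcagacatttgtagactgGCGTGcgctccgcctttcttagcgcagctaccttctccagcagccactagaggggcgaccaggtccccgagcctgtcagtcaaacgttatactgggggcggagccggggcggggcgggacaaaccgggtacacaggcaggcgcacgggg
Slc16a1: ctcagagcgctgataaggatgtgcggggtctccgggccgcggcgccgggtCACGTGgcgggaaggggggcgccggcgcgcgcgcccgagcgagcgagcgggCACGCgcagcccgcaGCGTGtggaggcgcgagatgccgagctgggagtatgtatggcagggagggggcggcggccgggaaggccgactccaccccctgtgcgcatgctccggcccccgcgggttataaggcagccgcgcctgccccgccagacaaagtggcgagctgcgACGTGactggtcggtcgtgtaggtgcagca
Slc2a1: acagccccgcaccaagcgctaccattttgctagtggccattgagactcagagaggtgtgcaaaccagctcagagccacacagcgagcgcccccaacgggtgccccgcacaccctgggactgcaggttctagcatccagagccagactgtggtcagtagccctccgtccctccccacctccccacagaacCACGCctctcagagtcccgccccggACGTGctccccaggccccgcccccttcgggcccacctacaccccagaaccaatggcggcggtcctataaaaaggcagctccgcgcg
Egln3: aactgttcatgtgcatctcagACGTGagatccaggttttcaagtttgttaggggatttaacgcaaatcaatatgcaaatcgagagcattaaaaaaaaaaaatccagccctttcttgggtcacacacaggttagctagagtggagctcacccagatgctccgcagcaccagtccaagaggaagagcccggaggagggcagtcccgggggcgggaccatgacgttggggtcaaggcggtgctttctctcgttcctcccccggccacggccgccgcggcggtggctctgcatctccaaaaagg
Ankrd37: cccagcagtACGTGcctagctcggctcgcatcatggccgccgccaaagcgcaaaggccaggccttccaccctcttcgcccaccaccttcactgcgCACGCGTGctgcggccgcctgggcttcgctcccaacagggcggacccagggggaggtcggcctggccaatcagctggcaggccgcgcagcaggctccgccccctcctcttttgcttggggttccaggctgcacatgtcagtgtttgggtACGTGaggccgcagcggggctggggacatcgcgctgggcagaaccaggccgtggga

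The Pfkp window holds 4 matches of GCGTG and 0 of ACGTG, and the Pfkl window holds 1 and 0. Slc16a1, the gene of this group with lower levels in the aged libraries, has 3 matches of ACGTG and 2 of GCGTG. Windows were found for 33 of the 36 genes, 47 windows in all, and Epas1, Slc2a3 and Ndrg1 had none. ACGTG was present in 26 of these windows (55.3%), against 19.6% of all 32851 windows of the same 300 bases and 24.4% of the 14943 windows of genes tested here. GCGTG was present in 25 (53.2%), against 32.4% and 47.0%. These are matches of letters and not mapped binding sites. Known HIF targets were on the list from the start, and overlapping windows of the same gene, as for Eno1 and Aldoa, share matches. The shares are therefore no test of the group.

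In edgeR no gene of the group passed the test on age alone, and 3 of 36 passed once the library set was a term: Pfkp and the HIF subunit gene Epas1 rose and Slc16a1 fell. With age only, edgeR's quasi-likelihood test called 0 of the 36 at an adjusted p under 0.05, where it called 0.0% of all genes tested, while DESeq2 called 1 of the 36 (Slc16a1), where it called 2.17% of all genes, and limma-voom 0. With the library set as a term it called 2 higher, where 0.615% of all genes were called higher, and 1 lower, where 1.31% were. At an unadjusted p under 0.05, 6 genes were higher in the age-only fit (Slc2a1, Pfkl, Pfkp, Epas1, Egln3 and Ankrd37) and 1, Slc16a1, was lower, against 4.15% and 4.64% of all genes. The fit with the set term added Hif1a and Vegfa, giving 8 higher and 1 lower against 8.59% and 10.2%. The 3 calls depended on the setting. With upper quartile scaling, with Y-linked transcripts as a further term, or in the 6-library set alone, 0 of the 36 were called. The same held without any one of young 1 to 4, aged 1, aged 2 or aged 4. In these settings 0 to 5 of all genes tested were called, so the loss was not particular to the 36. Without aged 3, 8 were called higher (Slc2a1, Hk2, Pfkl, Pfkp, Hif1a, Epas1, Egln3 and Vegfa) and 1 lower (Slc16a1), against 3.51% and 6.40% of all genes. DESeq2 with the set term called 6 higher (Pfkl, Pfkp, Hif1a, Epas1, Vegfa and Ankrd37) and 1 lower (Slc16a1), against 4.20% and 5.48%.

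Small differences above 0 were common in the group. The log2 fold change of aged over young was above 0 for 29 of 36 genes with age only, against 53.5% of all genes, and the count was 22 without aged 4. Its median over the 36 genes was 0.21 in both fits, where all genes tested had 0.03 with age only and 0.01 with the set term. Without aged 4 the median was 0.12 with age only and 0.098 with the set term. Without aged 3 it was 0.33 and 0.32, and without young 4 it was 0.38 with age only. Comparing single sets, the one aged library with Y-linked transcripts (aged 5) lay above the mean of young 1 to 3 for 29 of 36 genes, against 50.9% of all genes. The mean of aged 3 and aged 4 lay above young 4, the only young library of that set, for 19 of 36, against 44.2% of all genes.

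Groups that did not overlap in CPM were counted as well. Over all 9 libraries every aged value lay above every young value for Pfkp and Epas1 (1.67% of all genes did so) and below for Slc16a1 (2.76%). Within the 6-library set, 14 genes lay wholly higher in aged 1, 2 and 5 than in young 1 to 3 (13.7% of all genes) and 2, Hk1 and Slc16a1, wholly lower (16.6%). The 14 were Slc2a1, Hk2, Pfkl, Pfkp, Tpi1, Gapdh, Pgam1, Pkm, Ldha, Hif1a, Epas1, Egln3, Vegfa and Ankrd37. In a two-sided exact permutation test of each gene alone, 4 of the 25 genes given by library (Pfkl, Pfkp, Slc16a1 and Epas1) had p under 0.05 over all 9 libraries. Within the library sets 6 did, those 4 with Vegfa and Ankrd37. These p values are not adjusted and rest on the same order of libraries as the overlap, so they add no separate support. With the 6-library set fitted alone the median over the 36 was 0.26 against 0.03 over all genes. As the RNA is from whole tissue, fewer cells of a type and less RNA per cell cannot be told apart in any of these values.

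**Figure D1:**
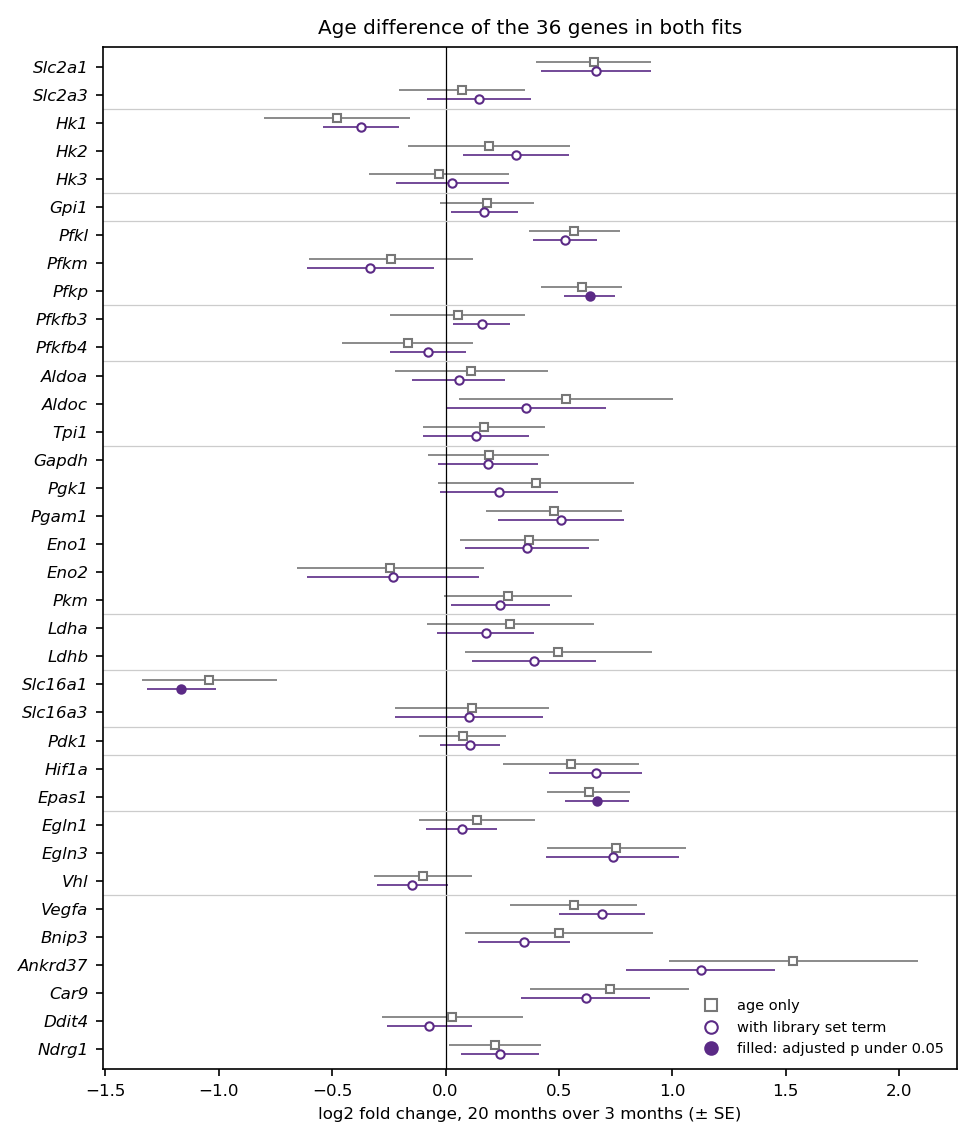
Log2 fold change of each of the 36 genes, 20 months over 3 months (x axis, points ± SE), in order of role from glucose uptake to HIF-responsive genes, with age only (grey squares) and with a term for the library set (purple circles). Filled points have an adjusted p under 0.05: Pfkp (0.64), Epas1 (0.67) and Slc16a1 (−1.17) with the set term, and 0 genes with age only.

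Of the 2 glucose transporters, Slc2a1 was higher in the aged libraries of the 6-library set and Slc2a3 overlapped. In the 6-library set Slc2a1 was at 15.4, 12.1 and 14.99 CPM in young 1 to 3 against 24.0, 19.5 and 20.8 CPM in aged 1, 2 and 5, while young 4 had 12.4 CPM and aged 3 and 4 had 12.6 and 31.1 CPM. Aged 3 lay within the young range, while the other 4 aged libraries lay above it. Its log2 fold change was 0.65 (SE 0.25, edgeR adjusted p = 0.475) with age only and 0.66 (SE 0.24, 0.175) with the set term. Slc2a3 encodes GLUT3, a high-affinity transporter of white blood cells and neurons. Young 1 to 3 had 235, 214 and 243 CPM of Slc2a3, and aged 1, 2 and 5 had 224, 180.4 and 314 CPM, with 152 CPM in young 4 and 128 and 262 CPM in aged 3 and 4. The highest library was aged 5 and the lowest aged 3, and the groups overlapped (log2 fold change 0.07, SE 0.28). Per length, Slc2a3 was the more abundant at 53.2 ± 10.3 CPM per kb in young libraries (SD, n = 4) against 4.21 ± 0.53 for Slc2a1. The share of Slc2a1 in the counts per length of both genes was 7.45% ± 1.09 in the young and 10.8% ± 1.98 in the aged libraries.

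Hexokinases trap glucose as glucose-6-phosphate, and the 3 genes of this step differed in direction without an edgeR call over all 9 libraries. Hk1, the housekeeping hexokinase bound to mitochondria, is the main form of red cells. Its level was 269, 277 and 266 CPM in young 1 to 3, 197, 195 and 248 CPM in aged 1, 2 and 5, 152 CPM in young 4 and 144 and 79.9 CPM in aged 3 and 4. Within each set every aged library was below every young one, and all libraries of the 3-library set were below all of the other 6. The age difference on the log2 scale was −0.48 (SE 0.32, edgeR adjusted p = 0.849) with age only and −0.37 (SE 0.17, 0.271) with the set term. Hk2 encodes the insulin- and HIF-responsive hexokinase of muscle and fat. Hk2 reached 75.7, 78.3 and 84.9 CPM in young 1 to 3, 103, 101 and 91.1 CPM in aged 1, 2 and 5, and 42.4 CPM in young 4 against 29.0 and 77.7 CPM in aged 3 and 4 of the 3-library set. Aged libraries were the higher ones within the 6-library set only, and aged 3 was the lowest of all. Hk3 encodes a hexokinase of myeloid cells. Hk3 stood at 265, 208 and 247 CPM in young 1 to 3 and at 299, 184 and 282 CPM in aged 1, 2 and 5, and in the 3-library set at 181 CPM in young 4 and 98.9 and 238 CPM in aged 3 and 4. The order was mixed, and its log2 fold change changed sign between the fits (−0.03 with age only and 0.03 with the set term).

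Hk3 and Hk1 made up most of the hexokinase counts per length in every library. Hk1 took 41.5% ± 3.87 in the young (SD, n = 4) and 34.9% ± 11.6 in the aged libraries (n = 5), Hk3 50.1% ± 4.73 and 54.3% ± 10.2, and Hk2 8.43% ± 1.00 and 10.8% ± 2.75. The deposited TPM values gave Hk2 a larger share in the 3-library set, at 22.7% in young 4 and 34.8% in aged 4, where counts over the deposited length gave 7.20% and 12.4%. All other shares are from counts over the deposited length.

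Gpi1 encodes glucose-6-phosphate isomerase, the next enzyme. In the 6-library set Gpi1 was at 639, 602 and 669 CPM in young 1 to 3 against 863, 572 and 796 CPM in aged 1, 2 and 5, while young 4 had 739 CPM and aged 3 and 4 had 692 and 840.5 CPM. Aged 2 was the lowest and aged 1 the highest library, and the groups overlapped (log2 fold change 0.18, SE 0.21).

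Phosphofructokinase, the committed step of glycolysis, is a tetramer of subunits from Pfkl, Pfkm and Pfkp, and 1 of the 3 genes passed. Pfkp (ENSMUSG00000021196) rose with the set term. Young 1 to 3 had 51.5, 47.5 and 53.4 CPM of Pfkp, and aged 1, 2 and 5 had 95.8, 78.0 and 73.6 CPM, with 44.9 CPM in young 4 and 59.6 and 66.8 CPM in aged 3 and 4. Every aged library was above every young library, from 44.9 to 53.4 CPM in the young and from 59.6 to 95.8 in the aged. The means were 49.3 ± 3.83 CPM in the young (SD, n = 4) and 74.8 ± 13.6 CPM in the aged libraries (SD, n = 5). Its log2 fold change was 0.60 (SE 0.18, edgeR adjusted p = 0.342) with age only and 0.64 (SE 0.11, 0.0405) with the set term, a 1.55-fold difference. Without any one of young 1 to 4 or aged 1, 2 or 4 the call was lost, with edgeR adjusted p up to 0.176 over the libraries left out in turn. Those fits called 0 to 2 of all genes tested.

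Pfkl, the liver-type subunit, was higher in the aged libraries of both sets, and edgeR called it in neither fit of all 9 libraries. Its level was 41.6, 41.4 and 39.3 CPM in young 1 to 3, 76.8, 54.1 and 52.2 CPM in aged 1, 2 and 5, 55.3 CPM in young 4 and 64.5 and 81.5 CPM in aged 3 and 4. Within each set the groups did not overlap, and young 4 lay above aged 2 and aged 5 of the other set. The log2 fold change was 0.57 (SE 0.20, edgeR adjusted p = 0.413) with age only and 0.53 (SE 0.14, 0.0843) with the set term. Pfkm encodes the muscle-type subunit. Pfkm reached 138, 214 and 194 CPM in young 1 to 3, 88.1, 242 and 122 CPM in aged 1, 2 and 5, and 317 CPM in young 4 against 193 and 268 CPM in aged 3 and 4 of the 3-library set. Its order by library was that of the skeletal muscle markers, except that young 1 and aged 5, and young 4 and aged 4, changed places. Their summed level was lowest in aged 1 (4581 CPM), young 1 (4962) and aged 5 (5118) and highest in young 4 (14143) and aged 4 (14566), 0 of the 13 markers were at 0 in every library, and 6 had a log2 fold change above 0. The part of muscle RNA in the Pfkm values was not tested. The groups overlapped, with a log2 fold change of −0.24 (SE 0.36, edgeR adjusted p = 0.9998).

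By counts per length, Pfkm was the largest of the 3 subunits at 70.4% ± 6.83 in the young and 56.7% ± 13.4 in the aged libraries. Pfkp took 18.2% ± 5.31 and 26.8% ± 9.61, and Pfkl 11.4% ± 1.79 and 16.5% ± 4.44. Aged 1 stood out with a Pfkp share of 40.8% above its Pfkm share of 35.7%. Pfkfb3 and Pfkfb4 encode the bifunctional enzymes that make and remove fructose-2,6-bisphosphate, the activator of phosphofructokinase. Pfkfb4 stood at 87.1, 76.8 and 85.7 CPM in young 1 to 3 and at 82.7, 60.9 and 99.7 CPM in aged 1, 2 and 5, and in the 3-library set at 52.3 CPM in young 4 and 36.8 and 55.98 CPM in aged 3 and 4. The 3-library set was below the other 6 for both genes, and Pfkfb3 ranged from 43.2 to 82.9 CPM in the young and from 40.0 to 102 in the aged libraries. Their log2 fold changes with the set term were 0.16 (SE 0.13) and −0.08 (SE 0.17), and neither passed.

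**Figure D2:**
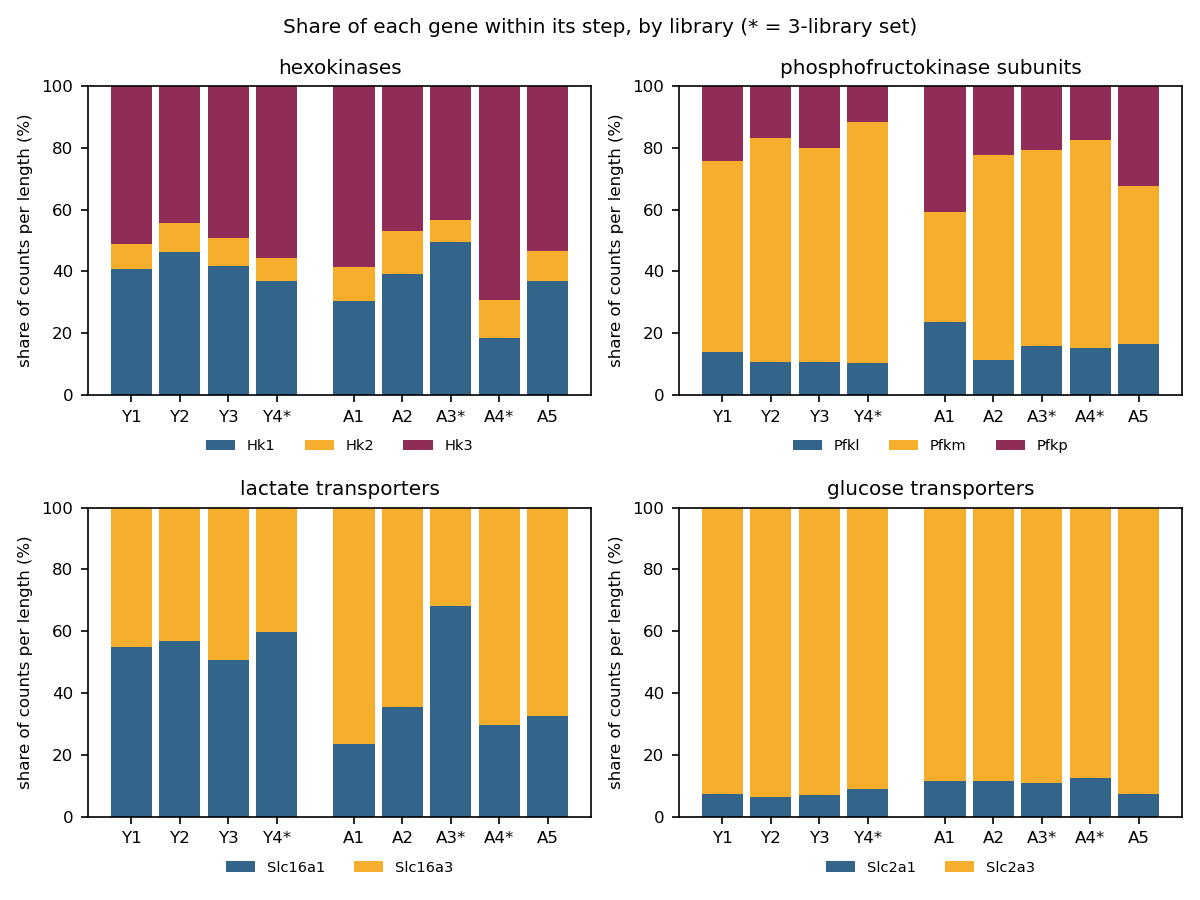
Share of each gene in the counts per length of its step (y axis, %), for each of the 9 libraries (Y, young; A, aged; asterisk, 3-library set). The Slc16a1 share was 50.6% to 59.9% in the young libraries and 23.6% to 35.5% in the aged libraries other than aged 3 (68.2%), and the Pfkp share was highest in aged 1 (40.8%).

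The aldolases and triosephosphate isomerase, which cleave and interconvert the sugar phosphates, did not pass. Aldoa encodes the aldolase of muscle and red cells. In the 6-library set Aldoa was at 821, 1102 and 1096 CPM in young 1 to 3 against 1128, 1424 and 961 CPM in aged 1, 2 and 5, while young 4 had 2040.3 CPM and aged 3 and 4 had 1255 and 2077 CPM. Young 4 and aged 4 were above the rest, and the groups overlapped (log2 fold change 0.11, SE 0.34). Reads shared by its 2 rows could be split between them. Aldoc, the brain-type aldolase, took 0.0921% of the aldolase counts per length in the young and 0.131% in the aged libraries, from 1.42 to 6.25 CPM over all 9. Tpi1 encodes triosephosphate isomerase. Young 1 to 3 had 202, 232 and 238 CPM of Tpi1, and aged 1, 2 and 5 had 259, 260.3 and 241 CPM, with 282 CPM in young 4 and 161 and 420.2 CPM in aged 3 and 4. Aged 4 was the highest and aged 3 the lowest library, although the other aged libraries lay above young 1 to 3 (log2 fold change 0.17, SE 0.27).

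The payoff phase, from glyceraldehyde-3-phosphate to pyruvate, held Gapdh, the most abundant transcript of the group per length, and 0 of its 6 genes passed. Gapdh encodes glyceraldehyde-3-phosphate dehydrogenase, often used as a reference gene. Its level was 1062, 1112 and 1208 CPM in young 1 to 3, 1654, 1412 and 1349 CPM in aged 1, 2 and 5, 1519.9 CPM in young 4 and 848 and 1734 CPM in aged 3 and 4. Aged 3 was the lowest and aged 4 the highest of all libraries. For Gapdh the log2 fold change was 0.19 (SE 0.27, edgeR adjusted p = 0.9998) with age only and 0.19 (SE 0.22, 0.725) with the set term. Pgam1 encodes phosphoglycerate mutase. Pgam1 reached 214, 188 and 211 CPM in young 1 to 3, 344, 219 and 287 CPM in aged 1, 2 and 5, and 168 CPM in young 4 against 129 and 381 CPM in aged 3 and 4 of the 3-library set. The same 2 libraries were its extremes, and its log2 fold change was 0.51 (SE 0.28, edgeR adjusted p = 0.372) with the set term. Pkm encodes the M-type pyruvate kinase, the last step. Pkm stood at 974, 905 and 1031 CPM in young 1 to 3 and at 1331, 1064 and 1292 CPM in aged 1, 2 and 5, and in the 3-library set at 1385 CPM in young 4 and 877 and 1933 CPM in aged 3 and 4. Aged 4 was again the highest and aged 3 the lowest library, with a log2 fold change of 0.24 (SE 0.22). The other members of this phase are Pgk1 (phosphoglycerate kinase), Eno1 and Eno2 (α- and neuronal enolase). Pgk1 ranged from 241 to 557 CPM in the young and 268 to 947 in the aged libraries, and Eno1 from 416 to 647 and 357 to 910. Eno2 was near the floor at 0.630 to 1.02 and 0.368 to 0.845 CPM.

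Neutrophil markers are given beside these genes. The 5 early neutrophil markers summed to 2140 CPM in aged 3, the lowest library, to 7229 in aged 4, the highest, and to 5224 in aged 1, the next highest, with 2235 to 3588 in the young. All 5 were above 0 with age only, against 53.5% of all genes, and 0 were at 0 in every library. The 11 late neutrophil markers summed to 24812.5 to 56316 CPM in the young and 17055 to 76244 in the aged libraries, highest in aged 4 and lowest in aged 2, with 6 above 0. The part of neutrophil precursors in the glycolytic values was not tested.

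Summed over the 18 enzyme genes of the pathway, from the hexokinases to lactate dehydrogenase, the level was 5911, 6130 and 6599 CPM in young 1 to 3 and 8209, 7111 and 7317 in aged 1, 2 and 5. In the 3-library set it was 9078 in young 4 and 5842 and 11372 in aged 3 and 4. Aged libraries were thus the higher ones within the 6-library set, while in the other set young 4 lay between the 2 aged libraries. The enzyme genes of this sum have processed pseudogenes, and 15 rows of the table are named as pseudogenes of one of the 36 genes. The highest of these rows summed to 75.9 counts over all 9 libraries, but reads of unnamed copies could have been counted with the parent genes.

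Lactate dehydrogenase did not pass for either subunit. Ldha encodes the form that favours lactate production. In the 6-library set Ldha was at 401, 436 and 463 CPM in young 1 to 3 against 563, 495 and 488 CPM in aged 1, 2 and 5, while young 4 had 879 CPM and aged 3 and 4 had 546 and 1229.5 CPM. Young 4 and aged 4 were far above the other libraries of their groups, and the log2 fold change was 0.29 (SE 0.37) with age only and 0.18 (SE 0.21) with the set term. Ldhb, the heart-type subunit, ranged from 26.9 to 61.8 CPM in the young and 25.9 to 85.2 in the aged libraries. Ldha took 91.7% ± 0.6996 of the counts per length of both genes in the young and 90.2% ± 3.70 in the aged libraries.

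Of the 2 lactate transporters 1 passed. Slc16a1 (ENSMUSG00000032902, MCT1), which carries lactate and pyruvate in either direction and is the lactate carrier of red cells, fell with the set term. Young 1 to 3 had 172, 198 and 186 CPM of Slc16a1, and aged 1, 2 and 5 had 61.9, 85.2 and 101 CPM, with 318 CPM in young 4 and 158 and 124 CPM in aged 3 and 4. Every aged library was below every young library, from 172 to 318 CPM in the young and from 61.9 to 158 in the aged. The means were 218 ± 67.4 CPM in the young (SD, n = 4) and 106 ± 36.8 CPM in the aged libraries (SD, n = 5). Its log2 fold change was −1.04 (SE 0.30, edgeR adjusted p = 0.321) with age only and −1.17 (SE 0.15, 0.0405) with the set term, a 2.24-fold lower level. Its call too was lost without any one of young 1 to 4 or aged 1, 2 or 4, with edgeR adjusted p up to 0.176. Those fits called 0 to 2 of all genes tested.

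The summed level of the erythroid markers, given beside Slc16a1, was 26640 to 34086 CPM in young 1 to 3 and 144195 in young 4, and 3425, 9302 and 14260 in aged 1, 2 and 5, 21984 in aged 4 and 99855 in aged 3. The log2 fold change of all 19 was below 0, and 0 were at 0 in every library. With age only, 16 of them had an unadjusted edgeR p under 0.05, where 4.64% of all genes were lower at that p. Within the young group and within the aged group, libraries had the same order in Slc16a1 as in the erythroid sum. Aged 3 had a larger erythroid sum than young 1 to 3 and less Slc16a1 (158 against 172 to 198 CPM). The 14 cell division genes were all below 0, 5 of them called lower with the set term, and summed to 4582 to 5407 CPM in the young and 2675 to 4860 in the aged libraries. The part of red cell precursors or of dividing cells in the fall of Slc16a1 was not tested. Slc16a3 (MCT4), the HIF-responsive lactate exporter, was not called. Its level was 73.0, 77.7 and 93.1 CPM in young 1 to 3, 103, 79.5 and 108 CPM in aged 1, 2 and 5, 109.6 CPM in young 4 and 37.8 and 150.4 CPM in aged 3 and 4. Aged 3 was the lowest and aged 4 the highest library, and the log2 fold change was 0.12 (SE 0.34, edgeR adjusted p = 0.9998). Of the counts per length of both transporters, Slc16a1 took 55.5% ± 3.85 in the young and 37.9% ± 17.5 in the aged libraries, the one aged library above the young range being aged 3 at 68.2%.

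**Figure D3:**
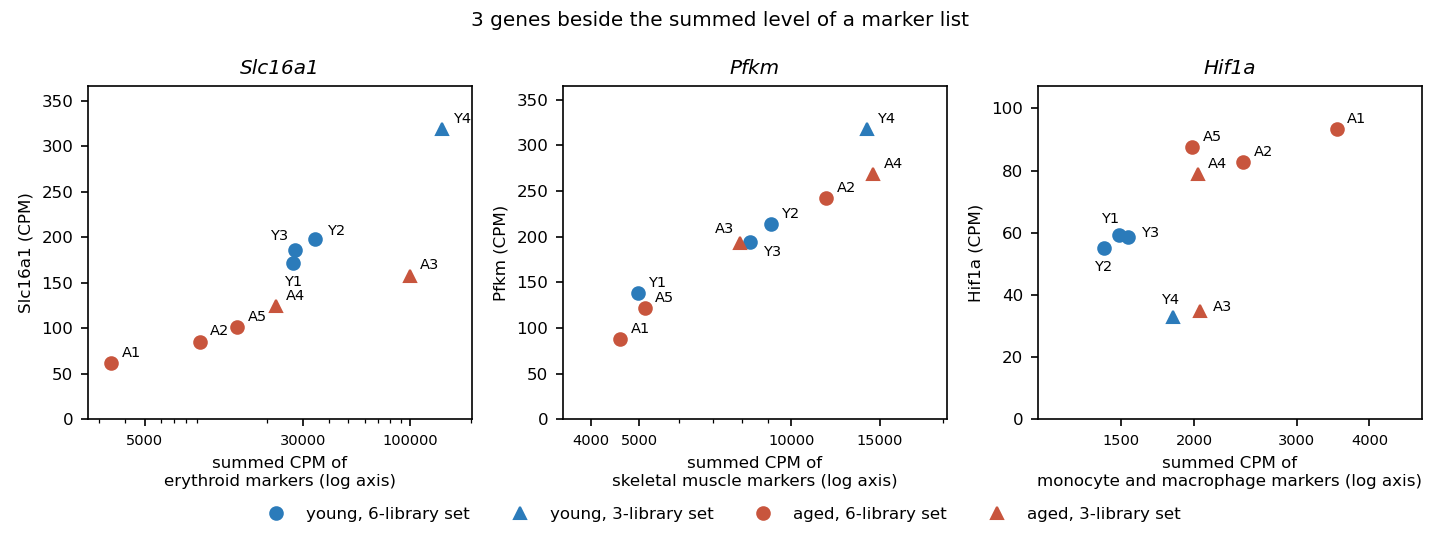
Level of Slc16a1, Pfkm and Hif1a in each library (y axes, CPM) against the summed CPM of erythroid, skeletal muscle and monocyte and macrophage markers (x axes, log scale); letters name the libraries. Within each age group Slc16a1 follows the order of its markers, while aged 3 has less Slc16a1 than young 1 to 3; Pfkm follows its markers except that young 1 and aged 5, and young 4 and aged 4, change places; Hif1a is lowest in young 4 and aged 3.

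Pdk1 encodes a kinase that shuts pyruvate out of mitochondrial oxidation and is a known HIF target. Pdk1 reached 40.9, 40.1 and 34.7 CPM in young 1 to 3, 51.8, 43.3 and 39.5 CPM in aged 1, 2 and 5, and 35.7 CPM in young 4 against 28.7 and 36.2 CPM in aged 3 and 4 of the 3-library set. The groups overlapped, and the log2 fold change was 0.08 (SE 0.19) with age only and 0.11 (SE 0.13) with the set term.

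Both HIF α genes were higher in the aged libraries within each set, and Epas1 passed with the set term. Hif1a encodes the widely expressed subunit HIF-1α. Hif1a stood at 59.2, 55.1 and 58.7 CPM in young 1 to 3 and at 93.2, 82.7 and 87.6 CPM in aged 1, 2 and 5, and in the 3-library set at 32.9 CPM in young 4 and 34.9 and 78.9 CPM in aged 3 and 4. Young 4 and aged 3 were both far below the other 7 libraries, and within each set every aged library was above every young one. Its log2 fold change was 0.55 (SE 0.30, edgeR adjusted p = 0.709) with age only and 0.66 (SE 0.20, 0.1197) with the set term. Epas1 (ENSMUSG00000024140) encodes HIF-2α, known from endothelial and stromal cells. In the 6-library set Epas1 was at 50.3, 56.5 and 52.4 CPM in young 1 to 3 against 68.8, 96.3 and 74.4 CPM in aged 1, 2 and 5, while young 4 had 40.9 CPM and aged 3 and 4 had 85.1 and 63.0 CPM. In CPM no aged library overlapped with the young ones, which ranged from 40.9 to 56.5 against 63.0 to 96.3. In deposited TPM the groups of Epas1 did overlap. Aged 3 and 4 had 9.23 and 8.65 TPM, against 11.65, 11.78 and 11.28 in young 1 to 3 and 3.83 in young 4. The TPM of Pfkp and of Slc16a1 did not overlap. The means were 50.1 ± 6.60 CPM in the young (SD, n = 4) and 77.5 ± 13.3 CPM in the aged libraries (SD, n = 5). Epas1 had a log2 fold change of 0.63 (SE 0.18, edgeR adjusted p = 0.335) with age only and 0.67 (SE 0.14, 0.0492) with the set term, or 1.59-fold. Of the 3 calls Epas1 lay closest to the threshold. Without any one of young 1 to 4 or aged 1, 2 or 4, in fits that called 0 to 2 of all genes, it was lost (edgeR adjusted p up to 0.201). It was also lost with hemoglobin and immunoglobulin genes removed (edgeR adjusted p = 0.05003) and with a filter at a mean of 1 CPM (0.0528).

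Marker sums beside the HIF genes were as follows. The 13 monocyte and macrophage markers, cells in which Hif1a is known to be active, summed to 1402 to 1843 CPM in the young and 1984 to 3516 in the aged libraries, without overlap, with 11 of 13 above 0 and 5 of them at an unadjusted p under 0.05. The 9 endothelial markers, cells known for Epas1, summed to 243 to 303 and 193 to 407 CPM, which overlapped, with 6 above 0. The 8 adipocyte and reticular stroma markers summed to 1500 to 1638 CPM in the young and 1002 to 1406 in the aged libraries, without overlap. Of these 8, 5 were above 0 and 3 below. Over all genes tested with age only, 53.5% were above 0 and 4.15% were higher at an unadjusted edgeR p under 0.05. The part of these cell types in the HIF α values was not tested. By counts per length, the split between Hif1a and Epas1 was 54.0% ± 4.23 to 46.0% in the young and 52.2% ± 11.9 to 47.8% in the aged libraries, and Hif1a took the smallest share in aged 3 (32.4%) and from 48.4% to 61.3% in the others.

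Genes that limit HIF were called by edgeR in neither fit of all 9 libraries, with age only or with the set term. With the replicate number as a further term beside the set, Egln3 was called. Egln1 (PHD2), the main oxygen-sensing prolyl hydroxylase, was highest in young 4 and aged 4. Young 1 to 3 had 35.4, 41.0 and 38.4 CPM of Egln1, and aged 1, 2 and 5 had 44.4, 49.5 and 34.9 CPM, with 65.3 CPM in young 4 and 47.2 and 71.8 CPM in aged 3 and 4. The groups overlapped (log2 fold change 0.14, SE 0.26). Egln3 (PHD3) is itself a strong HIF target. Its level was 12.97, 12.2 and 14.2 CPM in young 1 to 3, 29.9, 22.0 and 17.4 CPM in aged 1, 2 and 5, 16.2 CPM in young 4 and 11.9 and 35.7 CPM in aged 3 and 4. Aged 3 was the lowest of all libraries, and the other 4 aged libraries were above every young one. The fitted log2 fold change was 0.75 (SE 0.31, edgeR adjusted p = 0.505) with age only and 0.74 (SE 0.30, 0.217) with the set term. Vhl, the substrate receptor of the ligase, ranged from 27.1 to 39.7 CPM in the young and 23.8 to 40.4 in the aged libraries.

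The 6 HIF-responsive genes outside glycolysis were mostly above 0, and edgeR called 0 of them in either fit of all 9 libraries. DESeq2 with the set term called Vegfa and Ankrd37, and edgeR with the set term called Vegfa without the low-count filter and without aged 3 or aged 5. With the replicate number as a further term beside the set, edgeR called Vegfa and Bnip3. Vegfa encodes the main vascular growth factor. Vegfa reached 38.0, 36.4 and 43.5 CPM in young 1 to 3, 57.5, 69.9 and 44.9 CPM in aged 1, 2 and 5, and 20.2 CPM in young 4 against 32.2 and 51.0 CPM in aged 3 and 4 of the 3-library set. Within each set the aged libraries were the higher ones, and the lowest library was young 4, then aged 3. The log2 fold change was 0.56 (SE 0.28, edgeR adjusted p = 0.643) with age only and 0.69 (SE 0.19, 0.0898) with the set term. Ankrd37, at a low level, had the largest log2 fold change above 0 of the 36 genes in both fits. Ankrd37 stood at 0.989, 0.824 and 1.13 CPM in young 1 to 3 and at 2.55, 1.47 and 1.39 CPM in aged 1, 2 and 5, and in the 3-library set at 1.77 CPM in young 4 and 4.90 and 6.75 CPM in aged 3 and 4. These correspond to 18 to 130 estimated counts, and the 2 highest libraries, aged 3 and aged 4, belong to the 3-library set. Its log2 fold change was 1.53 (SE 0.55, edgeR adjusted p = 0.427) with age only and 1.12 (SE 0.33, 0.103) with the set term. With Y-linked transcripts as a further term the log2 fold change of Ankrd37 was 0.25 with age only and 0.60 with the set term, below that of Hif1a (0.77 and 0.63).

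The other 4 genes of this role overlapped between the groups. Bnip3, a receptor for mitophagy, ranged from 16.7 to 45.2 CPM in the young and 18.7 to 65.3 in the aged libraries. Ddit4 (REDD1), a brake on mTORC1, ranged from 11.7 to 23.7 and from 8.58 to 20.8 CPM. In both genes the 3-library set lay above the other 6 libraries, as it did for 20.0% of all genes, and in 3 genes (Hk1, Pfkfb3 and Pfkfb4) it lay below them, as it did for 20.9%. Car9, a carbonic anhydrase of hypoxic cells, was at 1.83 to 3.28 and 2.79 to 6.37 CPM, and Ndrg1, a stress-responsive gene, at 57.2 to 69.2 and 49.2 to 93.0. The difference between the age effects of the 2 sets was itself tested as an interaction term, which 2 of all genes and 0 of the 36 passed (smallest adjusted p among the 36 with edgeR 0.925).

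**Figure D4:**
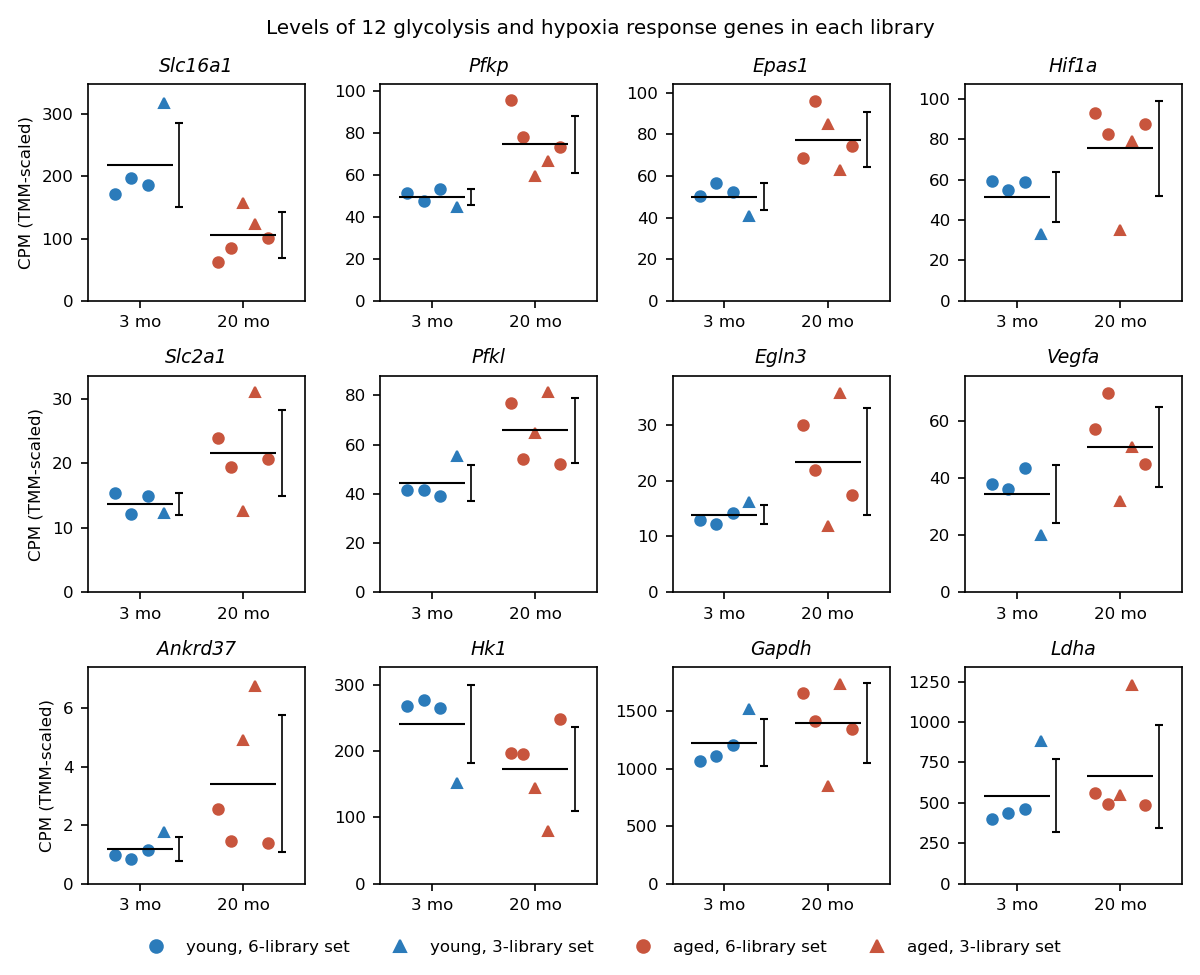
CPM of 12 of the genes in each library (y axes, from 0) by age (x axis), with circles for the 6-library set, triangles for the 3-library set, lines for means and bars for ± 1 SD (n = 4 and 5). Young and aged values do not overlap for Slc16a1, Pfkp and Epas1. Among the other genes plotted, aged 3 lies within or below the young range for Hif1a, Slc2a1, Egln3, Vegfa, Hk1, Gapdh and Ldha.

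Levels between genes were compared per length. Gapdh (963 ± 161 CPM per kb in young, SD, n = 4), Aldoa (816 ± 344), Pkm (526 ± 105) and Ldha (300.1 ± 124) were the most abundant in young libraries. Eno1 (249 ± 49.0), Gpi1 (229.7 ± 20.1) and Pgk1 (183 ± 82.2) followed, and neighbours among these 7 differed by less than the larger of their SDs, except Pkm and Ldha. The same 9 genes led the order in the aged libraries, from Gapdh at 1099 ± 273 to Pgam1 at 153 ± 56.7. Slc16a1 moved from place 14 of 36 to place 20 (49.4 ± 15.2 and 24.0 ± 8.31 CPM per kb). Aldoc and Eno2 were last in both groups.

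Other genes of these pathways, listed by function, gave few calls. Of 23 tested other glycolysis genes 10 were above 0 with age only, against 53.5% of all genes, and 13 below. With the set term 1 was called lower, against 1.31% of all genes. That gene was Minpp1, an inositol polyphosphate phosphatase that can also act on 2,3-bisphosphoglycerate, at 113 ± 24.4 CPM in the young and 63.8 ± 11.2 in the aged libraries (log2 fold change −0.89, SE 0.11, edgeR adjusted p = 0.0405 with the set term and 0.268 with age only). Pklr, the pyruvate kinase of liver and red cells, was at 58.3 ± 5.92 and 24.2 ± 9.91 CPM without overlap (edgeR adjusted p = 0.266 with age only and 0.0625 with the set term). Bpgm, the red cell enzyme of 2,3-bisphosphoglycerate, was at 609 ± 261 and 249 ± 257 (0.667 and 0.112), and Gpd1, glycerol-3-phosphate dehydrogenase, at 29.4 ± 6.15 and 19.77 ± 7.57 (0.702 and 0.363). Pklr and Bpgm are genes of the red cell lineage, and all 19 erythroid markers had log2 fold changes below 0 beside them; their part in these values was not tested.

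Pyruvate entry, the pentose phosphate pathway and other HIF components had 0 calls in either fit. Above 0 were 11 of 12 genes of pyruvate entry into mitochondria (median log2 fold change 0.10 with age only and −0.03 with the set term), 5 of 7 of the pentose phosphate pathway (0.24 and 0.05) and 8 of 14 other HIF components (0.07 and −0.01). Of all genes tested, 53.5% were above 0 with age only, and their medians were 0.03 and 0.01. Among 32 tested other hypoxia-responsive genes 23 were above 0 (median 0.18 and 0.13). An unadjusted edgeR p under 0.05 with age only was reached by 2 of these, against 4.15% of all genes. It was reached by 1 of those below 0, against 4.64%. Ak4, an adenylate kinase of mitochondria, was at 3.57 ± 0.512 and 7.64 ± 3.07 CPM (edgeR adjusted p = 0.342 with age only and 0.108 with the set term). Bnip3l (NIX), the mitophagy receptor of maturing red cells, was at 386 ± 90.0 and 224 ± 111 (0.532 and 0.0718).

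In the authors' deposited table, 0 of the 36 genes and 256 of all genes are marked significant. The authors' deposited table gives the smallest adjusted p of the 36 to Slc16a1 (0.0622, log2 fold change −1.04), then Epas1 (0.1201, 0.64), Ankrd37 (0.133, 1.54) and Pfkp (0.143, 0.61). Its signs were those of the age-only fit for all 36 genes, and both used the same libraries.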

How the data were processed

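Total RNA of 9 mouse bone libraries was sequenced, and samples were grouped by their labels. The 36 genes and all gene lists were chosen with earlier results of these data known. The estimated count per gene in the deposited table was not scaled by the authors, per the file headers and values, and was rounded here. The deposited TPM values were made by the authors and served as a second scale for shares and for the overlap of Epas1, Pfkp and Slc16a1. The fold change ratio and log2 fold change of the authors' deposited table, and its p-values, come from a DESeq2 comparison, as the table's name states, with unstated settings. The submitters' processing notes name Bowtie 0.12.2 and mm8 with no role given. Which program counted reads is not given in the sources used here. Gene lengths are the deposited ones and fix how levels compare between genes.

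Tests were edgeR 4.0.16 quasi-likelihood F tests in R 4.3.3, two-sided, on all 9 libraries with TMM factors, filterByExpr (minimum count 10, total 15) and Benjamini-Hochberg adjustment over all genes tested, at a threshold of 0.05. One fit held age only, the other also the library set. Printed levels are CPM with TMM factors. Per-length levels divide CPM by the deposited length. Counting error is part of the fitted variance, apart from the dispersion. The nearest libraries, young 1 and young 3, differed with a chi-square per gene of 16.7, so none was counted as a copy. The labels call replicates biological, and the p-values measure the spread between these libraries. Values by library are given for genes with an adjusted or unadjusted p under 0.05, for genes without overlap over all libraries or within the 6-library set, and for the gene with the highest TPM of each role. Up to 4 genes with the smallest p were named from each pathway list. A gene that this rule selected is not reported here.

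On simulated counts with 100 genes changed 2-fold and 100 changed 4-fold, 3 and 57 of them were recovered with age only, with 1 false call in 16376 genes. In a separate simulation, drawn from and fitted with the set term, 38 and 82 were recovered, with 2 false calls. The 2 simulations had different counts, dispersions and changed genes, so the gain from the set term was not measured. Alternatives were DESeq2 1.42.0, limma-voom (limma 3.58.1), RLE and upper quartile factors, hemoglobin and immunoglobulin genes removed, other low-count filters, robust dispersions, the replicate block, a Y-linked term, the 6-library set alone and each library left out. Promoter windows and their coordinates came from a RefSeq table and were not tied to the build of the counts. Plots were drawn in matplotlib 3.10.9 from tables made in pandas 2.3.3 (Python 3.11.15).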

Additional observations from a re-analysis of the deposited data

Results flagged for a closer look

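Within its group of 4 or 5, 1 library lay far from the rest for 6 of the 50 combinations of gene and group examined. Chance gives about 1 in 20, but that rate ignores the library set, and the share over all genes is not given here. Each of these outlying libraries is in the 3-library set. That set lay wholly above the other 6 libraries for 20.0% of all genes and wholly below for 20.9%. The 6 are therefore not read as particular to these genes. Young 4 was apart from young 1 to 3 for Hk1 (152 CPM, the lowest), Pfkl (55.3 CPM, the highest), Ldha (879 CPM, the highest) and Hif1a (32.9 CPM, the lowest). Aged 4 was the highest of its group for Ldha (1229.5 CPM), and aged 3 was the lowest for Hif1a (34.9 CPM).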

How the results depend on the processing

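Of the alternative values of single genes, 909 kept their direction and their side of the threshold, 32 lost and 18 gained a call, and 41 changed sign. The log2 fold changes of Pfkp, Epas1 and Slc16a1 kept their sign in all 20 alternatives with the set term (0.49 to 0.73, 0.52 to 0.75 and −1.35 to −0.85), and 10, 8 and 10 of the 20 called them. With age only, the count of all genes called was 360 with DESeq2, 1 with the Y-linked term and 2 in the 6-library set alone, and DESeq2 called 1 of the 36. With the set term, DESeq2 called 1604 genes and 7 of the 36, upper quartile factors 0 and 0 (smallest adjusted p 0.0516), no low-count filter 997 genes, the Y-linked term 5 and 0, and the 6-library set alone 2 and 0. With libraries left out in turn, the genes called ranged from 0 to 6 with age only (6 without aged 5) and from 0 to 1633 with the set term (1633 without aged 3 and 712 without aged 5), and those of the 36 from 0 to 9. Leaving young 4 out leaves the 3-library set with aged libraries alone, so the age effect then rests on the 6-library set. Causes were not tested. Depth limits Aldoc, Eno2, Ankrd37 and Car9, which had the fewest counts of the 36 genes.

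Replicate numbers are shared by the labels. The deviations of same-numbered libraries correlated at 0.456, 0.554, −0.387 and 0.739 for numbers 1 to 4, and 5 of 9 libraries matched best with their own number. Aged 5 has no young library of its number, so it could not do so. Number 3 sets the 6-library set (young 3) against the 3-library set (aged 3), and both libraries of number 4 are in the 3-library set. Whether the numbers pair the libraries therefore cannot be told from these values. With the replicate block, 13 genes and 0 of the 36 were called with age only, and 1485 genes and 9 of the 36 with the set term (the 3 calls with Slc2a1, Pfkl, Hif1a, Egln3, Bnip3 and Vegfa), where the median over the 36 was 0.38. Under the block with age only, Slc2a3 was at −0.12 and Slc16a3 at −0.062.

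The other changes of sign were in genes not called in either the reported or the alternative value. With limma-voom, Slc16a3 was at −0.0068 with age only and Hk3 at −0.035 with the set term. With the Y-linked term and age only, Hk1 was at 0.045, Hk3 at 0.33, Pfkfb4 at 0.40, Aldoa at −0.40, Ldha at −0.16 and Egln1 at −0.37, and with the set term Pfkfb4 was at 0.27, Aldoa at −0.16, Pdk1 at −0.030 and Egln1 at −0.20. In the 6-library set alone Hk3 was at 0.10. With libraries left out in turn and age only, ranges were −0.087 to 0.22 for Slc2a3, −0.16 to 0.16 for Hk3, −0.42 to 0.0049 for Pfkm, −0.085 to 0.44 for Aldoa, −0.051 to 0.31 for Tpi1, −0.059 to 0.62 for Ldha, −0.11 to 0.32 for Slc16a3, −0.035 to 0.17 for Pdk1 and −0.033 to 0.37 for Egln1. With the set term they were −0.020 to 0.27 for Slc2a3, −0.15 to 0.17 for Hk3, −0.19 to 0.029 for Pfkfb4, −0.065 to 0.22 for Aldoa, −0.064 to 0.28 for Tpi1, −0.17 to 0.30 for Slc16a3 and −0.010 to 0.17 for Egln1.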
